A study of Mus musculus with 2 samples.

Results

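The cycling endothelial cells of mouse hearts are described here, the barcodes that carry endothelial transcripts together with transcripts of cell division. A barcode stands for 1 captured cell. Each had at least 500 detected genes and at most 10% of its UMIs (unique molecular identifiers, which count each captured RNA molecule once) from mitochondrial genes. Endothelial barcodes held at least 4 UMIs of Pecam1, Cdh5, Egfl7 and Cldn5 in all, and more of these than of the fibroblast genes Pdgfra, Dcn, Col1a1 and Col3a1. Cycling barcodes also held UMIs of at least 3 of the 8 genes Mki67, Top2a, Birc5, Ccnb2, Cdk1, Ube2c, Cenpf and Nusap1. By this rule 140 of 3402 endothelial barcodes were cycling in the library of db/+ mice and 39 of 2833 in the library of db/db mice given salt, 179 of 6235 in all, out of 10427 barcodes in the matrices.

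Cells other than cardiomyocytes and CD45-positive leukocytes were taken from the hearts of male mice, 4 per genotype, and measured with droplet single-cell RNA sequencing of transcript 3′ ends. The control group was db/+, whose mice carry a mutation in 1 of the 2 copies of Lepr, the leptin receptor gene, with no treatment named. The other group was db/db, in which both copies are mutated, and it also received 1% salt; this genotype is used as a model of obesity and diabetes, and the series presents it for heart failure in which the ejection fraction is preserved. Genotype and salt therefore cannot be told apart, and the sources used here give neither ages nor whether the hearts of a group were pooled before loading. Each group is 1 library, so no difference between the libraries could be tested, no p-value is given, and every interval covers counting error only.

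A dividing cell copies its DNA in S phase, checks and prepares in G2, and separates its chromosomes in mitosis (M). Cyclins bound to cyclin-dependent kinases drive each step, and the inhibitors of these kinases hold cells back; many genes of the S phase are controlled by E2F factors, and many of G2 and mitosis by complexes that act through short elements close to the start of the gene. Endothelial cells of the adult heart, most of them in capillaries, rarely divide at rest and enter the cycle when vessels grow, under signals such as VEGF and apelin.

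The promoters of 5 genes show the elements that are known for S phase and for G2 and mitosis. The genes were chosen for their matches: Mki67, Top2a and Kif11 are genes of G2 and mitosis, and Mcm6 and Mcm5 encode parts of the helicase that opens DNA for replication. The sequences are the 150 bases upstream of each RefSeq start (RefSeq, GRCm38.p6), written 5′ to 3′ on the strand of the gene, at chr7:135716380-135716529 (minus strand), chr11:99024190-99024339 (minus), chr19:37376232-37376381 (plus), chr1:128359706-128359855 (minus) and chr8:75109359-75109508 (plus). Capitals mark TTTGAA (the core of the cell cycle homology region, the element of G2 and mitosis genes), CCAAT (the CCAAT box) and TTTGGCGC (an E2F-type element), each on either strand.
Mki67: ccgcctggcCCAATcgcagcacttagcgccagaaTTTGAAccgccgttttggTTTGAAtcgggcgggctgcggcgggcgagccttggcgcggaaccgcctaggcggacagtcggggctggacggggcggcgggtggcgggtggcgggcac
Top2a: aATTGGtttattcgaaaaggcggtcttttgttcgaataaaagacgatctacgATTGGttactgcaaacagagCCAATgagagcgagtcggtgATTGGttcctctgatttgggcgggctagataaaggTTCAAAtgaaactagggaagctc
Kif11: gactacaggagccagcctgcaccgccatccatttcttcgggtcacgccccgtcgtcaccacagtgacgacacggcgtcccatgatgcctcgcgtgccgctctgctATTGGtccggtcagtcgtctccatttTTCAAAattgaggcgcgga
Mcm6: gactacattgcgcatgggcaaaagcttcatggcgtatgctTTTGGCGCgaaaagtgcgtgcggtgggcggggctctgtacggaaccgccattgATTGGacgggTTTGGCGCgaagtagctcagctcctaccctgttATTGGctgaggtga
Mcm5: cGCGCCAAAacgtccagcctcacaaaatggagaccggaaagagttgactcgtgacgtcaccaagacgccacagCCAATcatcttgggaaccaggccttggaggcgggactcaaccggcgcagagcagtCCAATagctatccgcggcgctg
TTTGAA, read on either strand, began 116 and 98 bases before the start in Mki67, 23 bases before it in Top2a and 19 bases before it in Kif11, and these letters were not in the windows of Mcm6 and Mcm5. TTTGGCGC began 110 and 47 bases before the start of Mcm6 and 149 bases before that of Mcm5. Over the same window, TTTGAA was present in 9.07% of 32851 RefSeq promoters, CCAAT in 24.5%, both in 2.24%, and TTTGGCGC or the related TTTCCCGC in 0.868%; the searched motifs do not contain each other. Of the 8 genes of the rule, all found in the table, 4 held TTTGAA, 6 held CCAAT and 0 held an E2F-type element. Among 38 of 45 listed G2 and mitosis genes that were in the table, TTTGAA was present in 12 (31.6%), CCAAT in 28 (73.7%) and an E2F-type element in 1 (2.63%). Among 29 of 41 listed S-phase genes, TTTGAA was present in 4 (13.8%), CCAAT in 19 (65.5%) and an E2F-type element in 7 (24.1%). A listed gene counted if any of its promoters matched, while the shares over all promoters count each promoter, so the units differ. Genes with several promoters had more chances of a match. These are matches of letters, and binding was not measured.

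The endothelial label was checked on genes that the rule did not use. After every barcode was thinned to 1500 UMIs, at least 2 of 15 further endothelial genes (Kdr, Flt1, Tek and others) were detected in 134 of 137 cycling barcodes of the db/+ library (97.8%) and in 39 of 39 of the db/db and salt library. At least 2 genes of the fibroblast, leukocyte or endocardial lists were detected in 0 of 137 and 0 of 39, with exact binomial upper limits of 2.66% and 9.03%. In the db/+ members at least 2 mural genes were detected in 11 of 137 (8.03%, 4.08 to 13.9%), cardiomyocyte genes in 3, lymphatic genes in 2 and erythroid genes in 1; in the 39 members with db/db and salt each of these was 0. The 8 leukocyte genes summed to 5 and 1 UMIs, and Ptprc, which encodes CD45, was at 0 in both. Scrublet, a caller of doublets (droplets with more than 1 cell), marked 64 (1.29%) and 50 (1.21%) of the kept barcodes. Only 1 of 3402 and 1 of 2833 endothelial barcodes were among these, and none of the cycling ones. With so few endothelial barcodes marked, this does not show whether the members include doublets. Of 7 barcode sequences that both libraries share, 0 were cycling.

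The members were deep barcodes. Their median was 16793 UMIs and 4475 genes in the db/+ library and 18817 UMIs and 4779 genes in the db/db and salt library, against 5627 and 5795.5 UMIs in the other endothelial barcodes. In all they held 2550831 and 772394 UMIs, so that 3 UMIs correspond to 1.18 and 3.88 CPM (UMIs of a gene per 1000000 UMIs of the same group of barcodes). Over 40000 UMIs were found in 7 and 1 of them. One db/+ barcode carried 2591 of the 2600 Hbb-bs (haemoglobin) UMIs of the 140, and haemoglobin genes are not reported further. Genes of mural cells, the pericytes and smooth muscle cells around vessels, had lower summed levels in the members than in the rest: all 9 summed to 781 CPM in cycling and 1798 CPM in other barcodes of the db/+ library, and to 264 and 1785 CPM in the db/db and salt library, where Pdgfrb and Myh11 were at 0 in the members. The thinned shares with at least 2 mural genes did not show the same order in both libraries, at 8.03% of db/+ members and 7.20% of the other db/+ barcodes, but 0 of 39 and 6.28% with db/db and salt. The mural UMIs were uneven, with 429 of 1352 Rgs5 UMIs in 2 of the 140 barcodes and 125 of 168 in 2 of the 39.

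Cycling barcodes were a smaller share of endothelial cells in the db/db and salt library. They made up 4.12% of endothelial barcodes in the db/+ library (exact binomial 95% interval 3.47 to 4.84%) and 1.38% of those with db/db and salt (0.981 to 1.88%), a log2 ratio of -1.58. Because deeper barcodes show more markers, barcodes were also thinned. At 3000 UMIs the shares were 101 of 2756 (3.66%, 2.99 to 4.44%) and 33 of 2352 (1.40%, 0.968 to 1.96%), with 646 and 481 shallower barcodes left out. At 1500 UMIs they were 2.62% (2.09 to 3.22%) and 1.13% (0.768 to 1.60%), with 152 and 85 left out. The intervals of the 2 libraries did not overlap at any of these depths. Fibroblasts, the other large class, met the same cycle rule in 15 of 1402 barcodes (1.07%, 0.600 to 1.76%) of the db/+ library and in 3 of 1227 (0.244%, 0.0504 to 0.713%) of the db/db and salt library. With 1 library each, a difference between groups cannot be told apart from one between the 2 preparations.

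**Figure D1:**
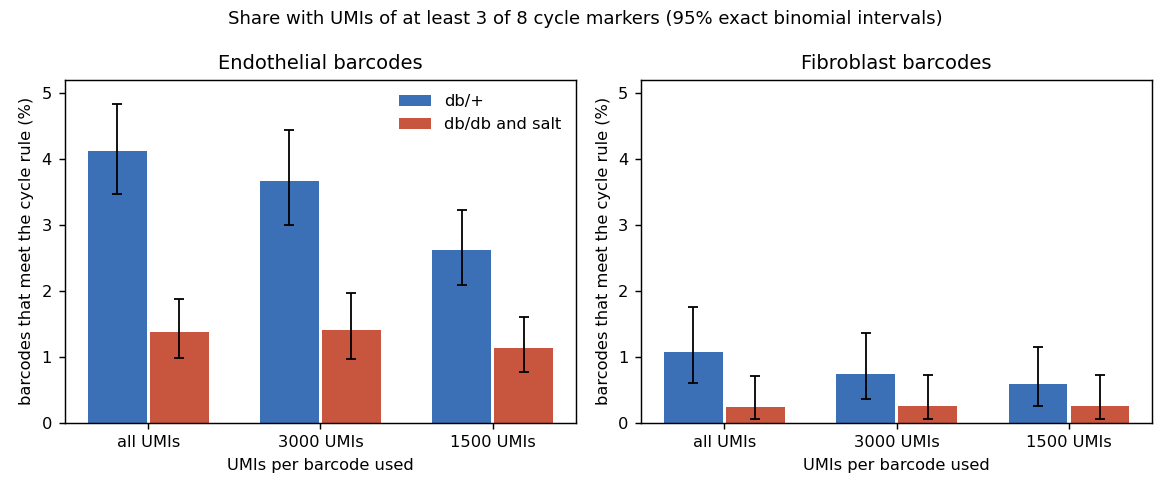
Share of barcodes that met the cycle rule (%, y axis) with all UMIs or after thinning each barcode to 3000 or 1500 UMIs (x axis), for endothelial (left) and fibroblast barcodes (right); bars are libraries and error bars exact binomial 95% intervals. The db/+ endothelial bars stand at 4.12, 3.66 and 2.62% and the db/db and salt bars at 1.38, 1.40 and 1.13%.

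Most endothelial barcodes held none of the 8 rule genes, and among the members all 8 was the most frequent number. In the db/+ library 2989 endothelial barcodes held none of the 8, 245 held 1 and 28 held 2; above the threshold, 20 held 3, 13 held 4, 13 held 5, 9 held 6, 13 held 7 and 72 held all 8. In the db/db and salt library the numbers from 0 to 8 markers were 2636, 145, 13, 3, 3, 3, 0, 2 and 28. All 8 markers were therefore carried by 2.12% and 0.988% of endothelial barcodes. Just outside the threshold, barcodes with 2 markers held 18.8 UMIs of the S-phase list and 18.7 of the G2/M list per 10000 UMIs in the db/+ library, and 8.85 and 13.9 with db/db and salt. Just inside it, barcodes with 3 markers held 31.6 and 23.3, and 35 and 25.6. Barcodes with none held 6.68 and 11.6, and 6.46 and 12.7.

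Mki67, which encodes the nuclear protein Ki-67 and is a standard marker of dividing cells, was at 923 CPM in cycling and 2.59 CPM in other barcodes of the db/+ library, and at 1225 and 1.08 CPM in the db/db and salt library. It was detected in 94.3% and 100% of the members, at 13 and 18 UMIs in the median member; among fibroblasts, at medians of 9635.5 and 11993 UMIs per barcode, 1.28% and 0.489% held an Mki67 UMI. Below, levels are paired in the same order, cycling before other barcodes and the db/+ before the db/db and salt library, unless a sentence names another. Top2a, the topoisomerase that untangles replicated DNA, was at 764 and 2.75 CPM, and at 963 and 1.27 CPM. Cdk1, the kinase that drives entry into mitosis, was at 357 and 4.00 CPM, and at 436 and 3.34 CPM. Ccnb2, which encodes a cyclin partner of Cdk1, was at 220 and 0.353 CPM, and at 395 and 0.542 CPM. Birc5, Ube2c, Cenpf and Nusap1, which act on chromosomes, on the breakdown of cyclins and on the spindle, lay between 219 and 780 CPM in the db/+ members and between 309 and 857 CPM in the db/db and salt members, and at 2.28 CPM or less in other barcodes. These 8 genes and the comparison they define chose the members, so all differences between cycling and other barcodes below describe the members and are no test of them.

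Differences are log2 ratios of CPM with 10 CPM added to each side, which understates the ratio of low genes. Of 6583 genes measured (a unique symbol and a mean of at least 20 CPM over the 4 sums, without the 8 rule genes), 284 (4.31%) were at least 2-fold higher and 81 (1.23%) at least 2-fold lower in cycling than in other barcodes of the db/+ library. In the db/db and salt library 371 (5.64%) were higher and 228 (3.46%) lower. The medians over all genes were -0.02 and -0.06. The rule selected on this contrast, so nothing is read from these shares.

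Genes of the spindle and of cytokinesis, which pull the chromosomes apart and split the cell, differed most among the lists of the division machinery. All 31 measured members of 32 were at least 2-fold higher in cycling barcodes of both libraries, with medians of 3.27 and 3.63. Prc1 (chr7:80294450-80316259, GRCm38), which bundles the microtubules of the central spindle, was at 566 CPM (Poisson 95% interval 537 to 596) in cycling and 1.26 CPM in other barcodes of the db/+ library, and at 737 (677 to 800) and 0.949 CPM in the db/db and salt library, log2 ratios of 5.68 and 6.09. The motor Kif11, whose promoter is printed above, was at 195 and 0.471 CPM, and at 256 and 0.407 CPM. Tpx2, which nucleates spindle microtubules, was 4.58 and 5.01 apart on the log2 scale, and the scaffold Anln of the contractile ring 4.11 and 4.40. Hmmr was at 205 and 0.157 CPM in the db/+ library; in the db/db and salt library it was at 215 CPM in the members and at 0 UMIs in the 2794 others, at least 1586-fold higher against the limit of 3 UMIs.

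Kinases, cyclins and kinetochore genes were in the same direction. Of 19 measured mitotic kinases and cyclins, 18 were at least 2-fold higher in each library (medians 2.95 and 3.35), and of 25 genes of the kinetochore and centromere, where microtubules attach, 21 and 22 were (2.62 and 3.08). Cks2, a small subunit of cyclin-dependent kinases, was at 398 and 7.73 CPM, and at 577 and 6.46 CPM. Ccna2, the cyclin of S phase and G2, was at 173 and 0.353 CPM, and at 227 and 0.0904 CPM. Cenpe, the kinetochore motor, was 4.60 and 4.78 apart, and Cdca8, of the chromosomal passenger complex, 4.19 and 4.65. Of the 18 genes of the anaphase-promoting complex, the ubiquitin ligase that ends mitosis, 5 in each library were at least 2-fold higher, and the median was 0.36 and 0.66. Its activator Cdc20 was at 221 and 3.22 CPM, and at 296 and 2.98 CPM, while Ube2s, which extends its ubiquitin chains, was also present in other barcodes: 632 and 130 CPM, and 792 and 106 CPM. Pttg1, the inhibitor of separase, was at log2 -0.49 and -0.29. Among mitotic transcription factors 3 and 5 of 9 were at least 2-fold higher; Foxm1 was at 55.3 and 1.65 CPM, and at 58.3 and 0.768 CPM.

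The replication genes were apart by less. Of 28 measured genes of the replication fork, 19 and 21 were at least 2-fold higher, with medians of 1.43 and 1.49. Mcm5 was at 82.7 and 11.8 CPM in the db/+ library and at 98.4 and 6.55 CPM in the db/db and salt library, and Mcm6 at 87.0 and 33.2 CPM, and at 91.9 and 27.9 CPM; the promoters of both are printed above. Pcna, the sliding clamp of the DNA polymerases, was at 136 and 44.2 CPM, and at 122 and 36.6 CPM, so that other endothelial barcodes held it too. Pclaf, which binds this clamp, was at 206 and 1.41 CPM, and at 224 and 0.542 CPM. For the supply of nucleotides, 7 of 14 genes were at least 2-fold higher in each library: Rrm2, a subunit of ribonucleotide reductase, was at 121 and 1.37 CPM, and at 171 and 1.04 CPM, and Tk1, thymidine kinase, was 3.43 and 3.87 apart. For DNA repair 7 of 9 measured genes were higher in each library, but 18 of the 27 listed were not measured.

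Chromatin genes were mostly higher too. Of 27 measured, 25 were at least 2-fold higher in each library (medians 2.11 and 2.50), and of 19 condensin and cohesin genes 12 were. H2afz, the histone variant H2A.Z, was at 1723 (1672 to 1774) and 291 CPM, and at 2400 (2292 to 2512) and 292 CPM, and was detected in every member. Hmgb2, a DNA-bending protein, was at 1701 and 138 CPM, and at 2728 and 169 CPM. Hist1h1b (chr13:21779883-21780625), a linker histone, was at 743 and 3.18 CPM, and at 1262 and 1.49 CPM, ratios of 5.84 and 6.79. Smc2, the core of condensin, was 3.38 and 3.63 apart, Lmnb1, lamin B1 of the nuclear envelope, 3.98 and 4.30, and Stmn1, which destabilises microtubules, 3.89 and 4.23. Of 19 genes of ribosome biogenesis and MYC, 1 and 3 were at least 2-fold higher, beside 4.31% and 5.64% of all measured genes, and their medians were 0.44 and 0.42 against -0.02 and -0.06 over all genes. None of 12 glycolysis genes (medians 0.09 and 0.13) or 21 genes of the respiratory chain (0.07 and 0.18) was 2-fold higher.

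**Figure D2:**
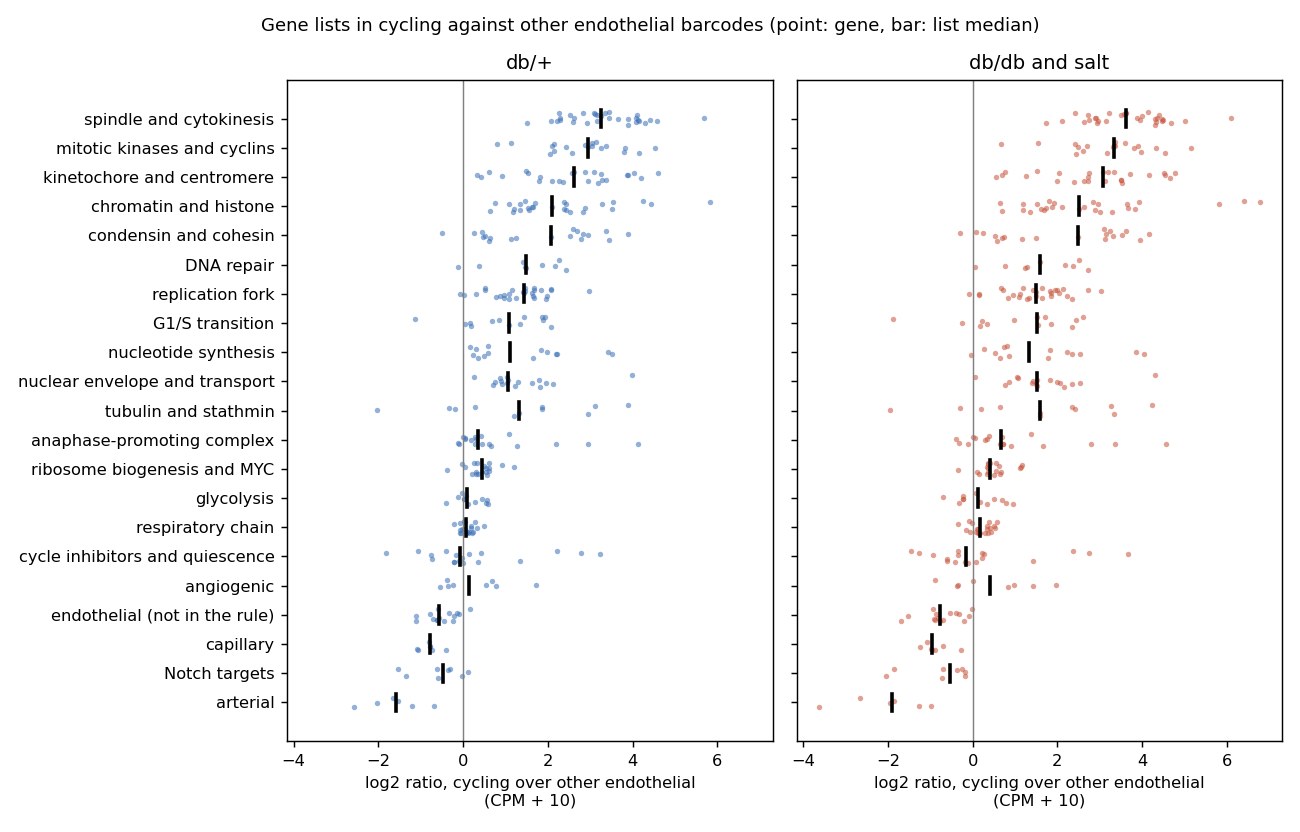
log2 ratio of cycling over other endothelial barcodes (x axis, CPM plus 10) for gene lists (y axis) in each library; a point is a measured gene and a vertical bar the list median. The medians of the spindle, kinase and kinetochore lists lie farthest to the right, those of the spindle list at 3.27 and 3.63. All 6 measured arterial genes lie left of 0 in both libraries.

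The regulators of entry into the cycle were mixed. Among 13 measured genes of the G1 to S transition, 7 were at least 2-fold higher in each library and 1, Ccnd2, was lower. Ccnd1, which encodes cyclin D1, the partner of the G1 kinases, was almost level between cycling and other barcodes: 822 and 722 CPM in the db/+ library, and 592 and 520 CPM in the db/db and salt library. Ccnd2, its relative cyclin D2, was at 130 and 295 CPM, and at 55.7 and 232 CPM. Ccne2, the cyclin of S-phase entry, was at 39.6 and 3.02 CPM, and at 64.7 and 2.26 CPM.

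Inhibitors of the cycle did not share a direction. Of 18 measured, 4 were at least 2-fold higher and 2 at least 2-fold lower in each library. Over all measured genes, 4.31% and 5.64% were higher and 1.23% and 3.46% lower by as much. Cdkn1c, the kinase inhibitor p57, was lower in the members at 108 CPM (95.4 to 121) against 406 in the db/+ library, and at 162 (135 to 193) against 401 in the db/db and salt library. Cdkn1a and Cdkn1b, p21 and p27, were at log2 -0.18 and 0.36 in the db/+ library and -0.34 and 0.08 with db/db and salt. Cdkn2c and Cdkn2d, p18 and p19 of the INK4 family, were higher: Cdkn2c was at 170 and 16.1 CPM, and at 203 and 21.9 CPM, and Cdkn2d was 2.23 and 2.36 apart. Cdkn3, a phosphatase that acts on cyclin-dependent kinases, was at 87.0 and 0.353 CPM, and at 122 and 0.316 CPM. Klf4, a factor of quiescent endothelium under flow, was at 366 and 774 CPM, and at 277 and 772 CPM.

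In most members the G2/M list gave more UMIs than the S-phase list. Summed over the other endothelial barcodes, the G2/M list was the larger too. There the S-phase and G2/M lists were at 705 and 1171 CPM in the db/+ library. In the db/db and salt library they were at 655 and 1271 CPM. For each barcode the UMIs of 41 S-phase genes were taken as a percentage of those of both phase lists, without the rule genes. The percentage ran from 2.54 to 73.6 in the db/+ library, with a median of 22.3, and from 3.79 to 70.2 in the db/db and salt library, with a median of 14.6. Over 50% were 30 of 140 (21.4%, 14.9 to 29.2%) and 7 of 39 (17.9%, 7.54 to 33.5%), and 29 and 8 lay between 40 and 60%, so these barcodes form a range and not separate classes. Because the G2/M list was also the larger in other endothelial barcodes, 50% marks no boundary between phases. Thinned to 3000 UMIs the medians were 21.4 and 17.2. The quartiles of the libraries, 11.1 to 42.8 and 8.62 to 40.4, overlap over nearly their whole width. The rule counts genes that peak in G2 and mitosis. With 3 or 4 markers the median was 57.9 and 59.6%, and with all 8 it was 16.4 and 13.4%. Among endothelial barcodes outside the rule, 30 of 3113 (0.964%) and 9 of 2709 (0.332%) held at least 5 S-phase genes at 1500 UMIs, against 44 of 137 (32.1%) and 14 of 39 (35.9%) of the members.

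**Figure D3:**
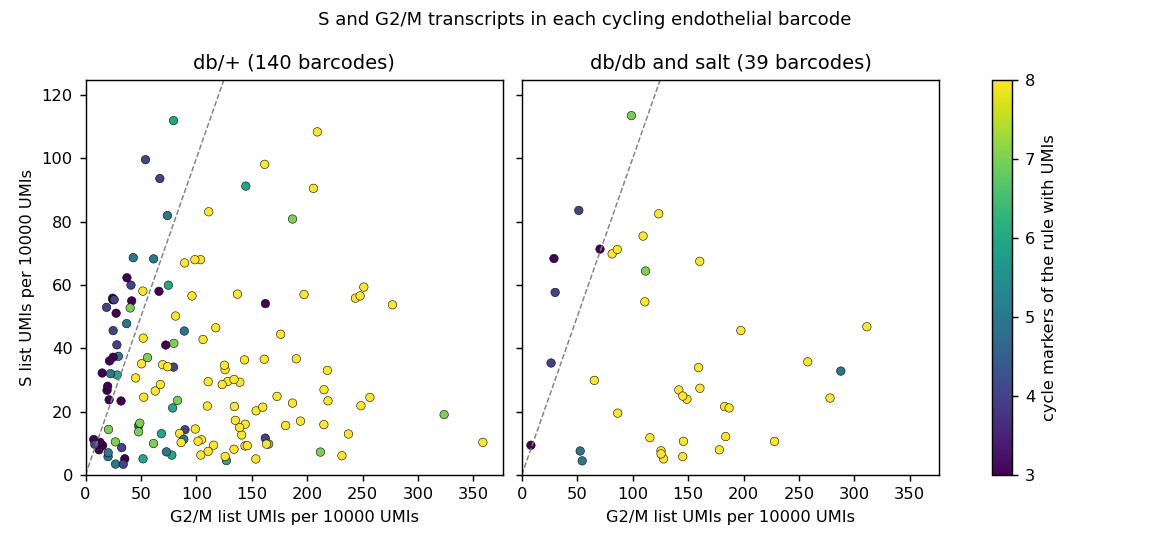
G2/M (x axis) and S-phase list UMIs (y axis) per 10000 UMIs of each cycling barcode, 140 of the db/+ library (left) and 39 of the db/db and salt library (right); colour is the number of the 8 rule genes detected and the dashed line marks equal values. Most barcodes with all 8 genes lie below the line. Those with 3 or 4 lie on both sides of it in the db/+ library and above it in the db/db and salt library.

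Some division genes differed in level across this split, and those given here were chosen after their values were seen. Ccnb1, the main cyclin of mitosis, was at 118 CPM (103 to 133) in the 110 db/+ barcodes with 50% or less and at 3.74 CPM (2 UMIs) in the 30 with more; in the db/db and salt library it was at 170 CPM (140 to 205) and 0 UMIs. E2f1, a driver of S-phase genes, went the other way, with 89.8 CPM (66.2 to 119) in the S-rich and 18.3 CPM (12.9 to 25.3) in the remaining db/+ barcodes, and with 120 (67.1 to 198) and 17.0 CPM (8.48 to 30.4) in the db/db and salt library. Ccnd1 was at 1226 CPM in S-rich and 715 in the remaining db/+ barcodes, and at 1119 and 490 CPM in the db/db and salt library. The inhibitor Cdkn2d was at 29.9 CPM in S-rich and 208 in the remaining db/+ barcodes, and at 48.0 and 243 CPM with db/db and salt, and was thus carried mostly by barcodes with 50% or less. In the same order, the linker histone Hist1h1b was at 150 and 901 CPM, and at 71.9 and 1492 CPM. Hist1h2ap, Hist1h2ae and Hist1h3c were also lower in S-rich barcodes of both libraries, Hist1h2ap at 50.5 and 246 CPM, and at 40.0 and 1293 CPM. S-rich therefore names only the share of list UMIs, and which barcodes were in S phase was not determined. Not every gene differed this way: Cdkn1a, the inhibitor p21, was at 253 (212 to 299) and 280 CPM (257 to 304), and at 208 (136 to 304) and 255 CPM (218 to 297). E2f8, a repressor that is itself in the S-phase list, was at 20.6 CPM (11 UMIs) and 33.2 CPM, and at 16.0 CPM (2 UMIs) and 47.9 CPM.

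The members kept most of the endothelial programme at a lower level. Of the 15 endothelial genes outside the rule, all measured, 13 differed by less than 2-fold in each library, and Flt1 and Ptprb were at least 2-fold lower; the list median was -0.56 and -0.78. Kdr, the main VEGF receptor, was at 990 CPM in cycling and 1362 CPM in other barcodes of the db/+ library, and at 974 and 1673 CPM in the db/db and salt library. Flt1, the VEGF receptor that acts as a decoy, was at 605 and 1312 CPM, and at 562 and 1629 CPM. Cd36, the fatty acid transporter of capillaries, was at 2187 and 3652 CPM, and at 2267 and 4397 CPM. The S and G2/M lists summed to 3027 and 9315 CPM in the db/+ members and to 3296 and 12372 CPM in the db/db and salt members, against 705 and 1171 CPM, and 655 and 1271 CPM, in other barcodes.

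By subtype, arterial genes were detected in a smaller share of cycling than of other barcodes. At 1500 UMIs, at least 2 of 8 arterial genes were detected in 8 of 137 db/+ members (5.84%, 2.55 to 11.2%) and in 839 of 3113 other barcodes (27.0%, 25.4 to 28.5%); in the db/db and salt library they were detected in 1 of 39 (2.56%, 0.0649 to 13.5%) and in 763 of 2709 (28.2%, 26.5 to 29.9%). Capillary genes were detected in 119 of 137 (86.9%) and 35 of 39 (89.7%) members, and in 94.5% and 94.9% of the others. Venous genes were detected in 8 of 137 and 1 of 39 members, and in 10.3% and 8.19% of the others. Genes tied to vessel growth were detected in 13 of 137 (9.49%, 5.15 to 15.7%) and 8 of 39 (20.5%, 9.30 to 36.5%), against 6.68% and 6.87% of the others. Barcodes are not replicates, so these shares were not tested.

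**Figure D4:**
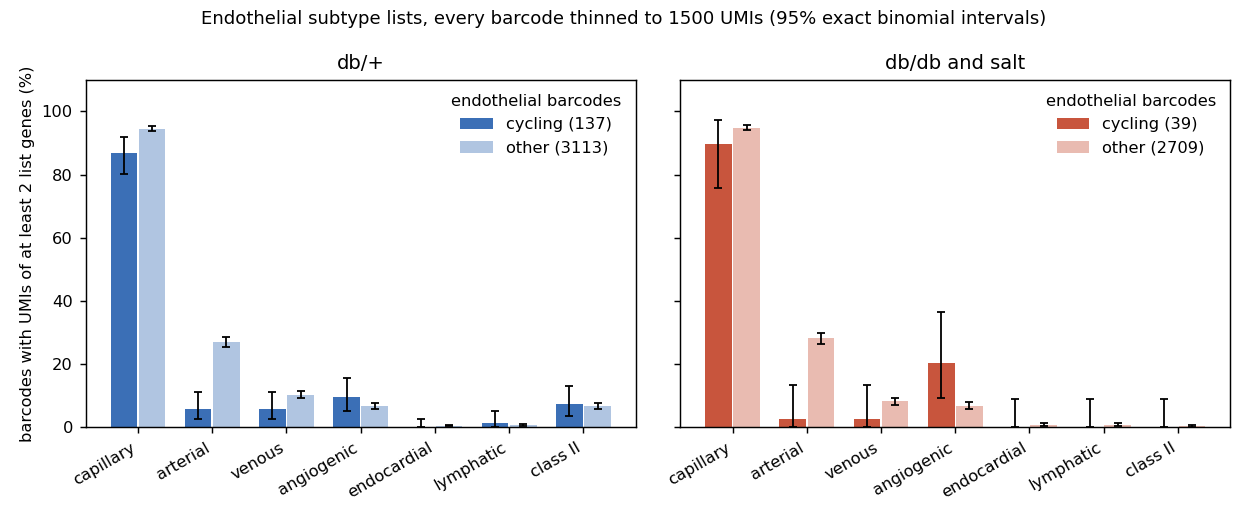
Share of barcodes (%, y axis) with at least 2 genes of each subtype or cell type list (x axis) after thinning to 1500 UMIs, for cycling and other endothelial barcodes of each library; error bars are exact binomial 95% intervals. The arterial shares are 5.84 and 2.56% in cycling and 27.0 and 28.2% in other barcodes.

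Summed UMIs gave lower arterial levels as well, and the capillary and venous lists were also lower. Of 7 capillary genes, 2 were at least 2-fold lower in the members of each library (medians -0.78 and -0.95). Of 5 measured venous genes, 1 and 3 were at least 2-fold lower (medians -0.50 and -1.73). Of 6 measured arterial genes, 5 were at least 2-fold lower in the members of each library (medians -1.59 and -1.91). Over all measured genes the shares at least 2-fold lower were 1.23% and 3.46%. Fbln5 (chr12:101746565-101819055), an elastic fibre protein of arteries, was at 8.23 CPM (21 UMIs) against 97.7 in the db/+ library and at 0 UMIs against 114 CPM in the db/db and salt library, at least 29.3-fold lower. Stmn2 was at 54.9 and 257 CPM, and at 66.0 and 285 CPM. The gap junction gene Gja4 was at 22.3 and 91.2 CPM, and at 3.88 (3 UMIs) and 77.8 CPM. Hey1 and Jag1 were the 2 of 8 Notch genes that were at least 2-fold lower, by -1.53 and -1.34 in the db/+ library and -1.86 and -2.05 with db/db and salt. Vwf, the clotting factor of larger vessels and veins, was at 23.9 and 94.7 CPM, and at 1.29 (1 UMI) and 105 CPM. Among the 15 lowest ratios there were also smooth muscle genes (Acta2, Tagln, Myh11, Myl9), which move with the lower mural sums given above; their part in the arterial values was not tested.

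Of the 8 genes tied to vessel growth, 1 and 2 were at least 2-fold higher in the members (medians 0.15 and 0.41). Of 20 measured genes of the VEGF, apelin and angiopoietin list, 1 and 2 were higher and 2 in each library lower. The medians of that list were -0.30 and -0.38. Vegfc was among the 15 lowest ratios, at -1.73 in the library nearer 0. Apln, which encodes apelin, a peptide of sprouting endothelium, was the growth gene that was at least 2-fold higher in the members of both libraries. It was at 236 CPM (217 to 255) against 64.7 in the db/+ library, and at 216 (185 to 252) against 47.8 in the db/db and salt library, ratios of 1.72 and 1.97. At 1500 UMIs it was detected in 24.1% and 17.9% of the members and in 5.01% and 3.77% of the other endothelial barcodes; with all UMIs it was detected in 84 of 140 and 25 of 39 members and in 15.5% and 10.4% of the others, and 2.28% of db/+ fibroblasts held a UMI. S-rich members held more of it, at 389 CPM (338 to 446) against 195 (176 to 215) in the db/+ library and at 440 (331 to 572) against 173 (142 to 208) in the db/db and salt library. Adm, adrenomedullin, was at 106 and 57.9 CPM, and at 148 and 49.0 CPM. The apelin receptor gene Aplnr was level, at log2 0.02 and -0.30.

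Between the libraries, few division genes of the members were 2-fold apart. Within cycling barcodes, 12 of 6583 genes (0.182%) were at least 2-fold higher and 110 (1.67%) at least 2-fold lower in the db/db and salt library, and within other endothelial barcodes 5 (0.076%) and 45 (0.684%). None of the 31 spindle, 19 kinase and cyclin, 25 kinetochore or 28 replication fork genes was past 2-fold within cycling barcodes, where the medians were 0.35, 0.36, 0.31 and 0.07. Both groups of members were chosen by the rule, whose 8 genes are left out of this comparison, and they differ in it: all 8 markers were held by 72 of 140 db/+ members and 28 of 39 with db/db and salt. For Prc1, which bundles spindle microtubules, the ratio between the libraries ran from 0.06, among barcodes with all 8 markers, to 0.39 over the alternatives. The part of this mix in the list medians was not tested.

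Histone genes had the highest ratios between the libraries. Hist1h2ap (chr13:21833026-21833507) was at 205 CPM (188 to 224) in the db/+ and 1090 CPM (1018 to 1166) in the db/db and salt members, log2 2.35, and at 1.30 and 3.03 CPM in other barcodes. It was detected in 73 of 140 and 23 of 39 members; the median member held 1 and 5 UMIs, and 1 barcode gave 147 of the 842 UMIs of the db/db and salt library. In the db/+ and then the db/db and salt members, Hist1h2ae was at 245 (227 to 265) and 693 CPM (635 to 754), and Hist1h1b at 743 and 1262 CPM. The histone genes of this cluster have near-identical copies between which reads can be divided, so the value of a single copy is uncertain. Whether their transcripts were captured equally in the 2 preparations was not tested. Compared in the same way, Hmgn2, a nucleosome-binding protein, was at 225 and 427 CPM, and Cenpw, a centromere protein, at 65.1 and 115 CPM, both below 2-fold. Ccdc85b was at least 2-fold higher within the db/db and salt members, at 68.6 and 150 CPM, and in other barcodes of the same libraries it was at 64.4 and 138 CPM.

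Interferon response genes were lower in the db/db and salt members than in the db/+ members. Of 27 measured, 24 were at least 2-fold lower within cycling barcodes (median -2.08, or -2.01 with sums of 0 at their limit) and 17 within other endothelial barcodes (median -1.22), against 1.67% and 0.684% of all genes. The 30 listed genes summed to 6629 CPM in cycling and 5933 CPM in other barcodes of the db/+ library and to 1578 and 2315 CPM in the db/db and salt library. Isg15, a ubiquitin-like protein, was at 289 CPM (268 to 311) and 222 CPM in cycling and other db/+ barcodes, and at 40.1 CPM (27.3 to 57.0) and 77.9 CPM in the db/db and salt library. Iigp1, an interferon-inducible GTPase, was at 630 (600 to 662) and 617 CPM, and at 57.0 (41.4 to 76.5) and 127 CPM. At 1500 UMIs, Isg15 was detected in 39 of 137 and 2 of 39 members and in 21.0% and 8.90% of other barcodes, and Iigp1 in 51 of 137 and 2 of 39 members and in 39.3% and 13.8% of other barcodes. Bst2, tetherin, was at 1038 and 917 CPM, and at 258 and 251 CPM. Ifi27 was level across all 4 sums, at 245, 232, 228 and 218 CPM.

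The chemokine gene Cxcl10 (chr5:92346638-92348889) rested on few cells. It was at 248 CPM in the db/+ members and 21.7 CPM in other db/+ barcodes, but 487 of its 632 UMIs came from 2 of the 140 members. In the db/db and salt library it was at 10.4 CPM (8 UMIs) and 2.17 CPM. At 1500 UMIs it was detected in 16 of 137 (11.7%, 6.82 to 18.3%) db/+ members and 1.67% of the other db/+ barcodes, while with db/db and salt it was detected in 1 of 39 (2.56%, 0.0649 to 13.5%) and 0.221%. Its neighbour Cxcl9 was more even, with 98 of 140 db/+ members holding a UMI, and was at 342 and 248 CPM, and at 31.1 and 53.0 CPM.

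Antigen presentation genes were lower in the db/db and salt library in cycling and in other cells. Of 18 measured, 16 were at least 2-fold lower within cycling and 15 within other barcodes (medians -1.51 and -1.40). Over all measured genes the shares at least 2-fold lower were 1.67% and 0.684%. The class I heavy chain gene H2-K1 was at 2425 and 2107 CPM, and at 878 and 748 CPM. B2m, the class I light chain, was at 3470 and 3187 CPM, and at 1550 and 1273 CPM. Tap1, of the peptide transporter, was at 177 and 145 CPM, and at 18.1 and 32.4 CPM. Cd74, the class II invariant chain, was at 224 CPM (206 to 243) and 226 CPM in the db/+ library, with 571 UMIs in 23 of the 140 members and 185 of them in 1. It was at 0 UMIs in the 39 db/db and salt members, at least 57.6-fold lower, and at 9.04 CPM in the other barcodes. H2-Aa, H2-Ab1 and H2-Eb1, the class II chains, were at 0 UMIs in the same 39, which makes them at least 18.1-fold, 22.4-fold and 12.2-fold lower. Thinned to 1500 UMIs, 8.03% of db/+ members and 0 of 39 held Cd74, as did 7.90% and 0.406% of other barcodes.

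**Figure D5:**
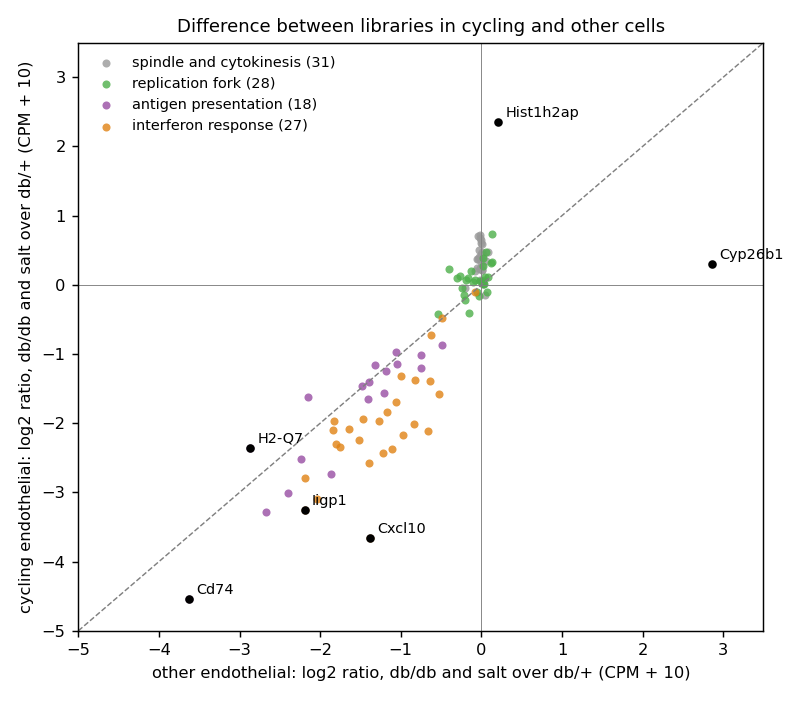
log2 ratio of the db/db and salt library over the db/+ library for the measured genes of 4 lists. The x axis is within other endothelial and the y axis within cycling barcodes, with the dashed line of equal ratios. A coloured point is a gene of the list named in the key, and only the genes labelled by name are in black. Cd74, Iigp1, H2-Q7 and Cxcl10 lie low on both axes, Cyp26b1 lies right at 2.86 and 0.30, and Hist1h2ap high at 0.21 and 2.35.

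Cyp26b1, the enzyme that breaks down retinoic acid, was at a higher level with db/db and salt in other endothelial barcodes, and in cycling ones it had few UMIs and a ratio that changed sign with the settings. In other barcodes it was at 39.5 CPM (37.1 to 42.1) in the db/+ and 350 CPM (342 to 358) in the db/db and salt library, log2 2.86. Within the members it was at 11.8 CPM (7.94 to 16.8, 30 UMIs) and 16.8 CPM (8.96 to 28.8, 13 UMIs), log2 0.30. Over the alternatives this ratio ran from -0.23, with every barcode weighted equally, to 1.13, which is past 2-fold, with at least 2 cycle markers. At 1500 UMIs it was detected in 0 of 137 and 1 of 39 (2.56%, 0.0649 to 13.5%) members and in 4.02% and 26.7% (722 of 2709) of the others. With all UMIs the shares were 12.1% and 17.9% of the members, 12.0% and 45.2% of the others, and 1.85% and 6.28% of fibroblasts. Dhrs3, another enzyme of retinoid turnover, was at 84.7 and 175 CPM, and at 97.1 and 266 CPM, and Rarg, a retinoic acid receptor, at 31.8 and 74.1 CPM, and at 24.6 and 97.0 CPM. The difference between the 2 library ratios of Cyp26b1 was not tested.

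Venous and mural genes also differed between the libraries within the members, on few UMIs. Of all measured genes, 1.67% within cycling and 0.684% within other barcodes were at least 2-fold lower with db/db and salt. Of 5 measured venous genes, 4 were at least 2-fold lower in the db/db and salt members (median -1.31) and 1 in other barcodes (median 0.10). Nr2f2, the factor that sets venous identity, was at 67.4 CPM (57.7 to 78.3) and 23.3 CPM (13.8 to 36.8, 18 UMIs) in the members and at 99.7 and 100 CPM in the others. Vcam1, an adhesion molecule of activated endothelium, was at 143 and 28.5 CPM in the members and at 119 and 44.3 CPM in the others, and 80 of the 366 db/+ UMIs came from 1 member. Of 9 mural genes, 7 were at least 2-fold lower in the db/db and salt members (median -1.60, or -1.25 with sums of 0 at their limit) and 0 in other barcodes. Igfbp5 was at 32.5 CPM in the db/+ members, with 54 of 83 UMIs in 1 barcode, and at 0 UMIs in the db/db and salt members, at least 81.6-fold lower than the 317 CPM of the other barcodes of that library. The part of the mural UMIs in the venous values was not tested.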

How the data were processed

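The 2 libraries are the 2 samples of the series, 1 of db/+ and 1 of db/db with salt, grouped by the genotype and treatment labels. The matrices deposited by the authors hold unnormalized UMI counts of 31053 genes, written by Cell Ranger 6.0.2 per the file headers. Cell Ranger, Seurat and the GRCm38 (mm10) genome are named in the submitters' processing notes; the annotation release and the use made of Seurat were not stated. Coordinates are those of GENCODE M21 on GRCm38, and 71 entries whose symbol occurs more than once were left out of gene counts and lists.

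Barcodes were chosen by the rule given above and no doublets were removed. UMIs were summed over cycling and over other endothelial barcodes of each library and scaled to CPM. The total was 44935235 UMIs in the db/+ and 40974634 in the db/db and salt matrix. Log2 ratios had a pseudocount of 10 CPM, and a gene was counted from a ratio of 2-fold. Intervals at 95% are exact Poisson for sums and Clopper-Pearson for shares. With 1 library per group no test was run. A sum of 0 was set to 3 counts for a fold limit. Thinning drew 1500 or 3000 UMIs per barcode with a fixed seed. The count step was tested on simulated data.

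The members, the 47 gene lists and the choice of comparisons were made with earlier results of these data known. Named genes are the rule genes, the 15 highest and 15 lowest ratios of cycling over other barcodes (the ratio nearer 0 of both libraries, at least 50 CPM), the 10 highest and 10 lowest between libraries within cycling barcodes (at least 100 CPM and 50 UMIs), in both cases without genes of the mitochondrial genome, ribosomal proteins and haemoglobin and without Rik and Gm-numbered genes, and up to 6 members of each list with all members of lists of 15 or fewer genes and all cell type markers. E2f1, Cdkn2c, Cdkn2d and some other list members, and the promoters printed, were chosen after their values were seen. One gene that the rule names is not reported here. Python 3.11.15, numpy 2.4.6, scipy 1.17.1, pandas 2.3.3, scanpy 1.11.5 and matplotlib 3.10.9 were used, with edgeR 4.0.16 for one alternative scaling. Alternatives covered the filters, the pseudocount, the fold, the scaling, the cycle rule, doublet removal and the weight of single barcodes.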

Additional observations from a re-analysis of the deposited data

Results flagged for a closer look

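Esm1, a marker of endothelial tip cells, had opposite directions in the 2 libraries, with a log2 ratio of cycling over other endothelial barcodes of -0.54 (db/+) and 0.83 (db/db and salt). It rested on 33 and 32 UMIs in the members, 20 of the 32 in 1 barcode. Usp18, which removes Isg15 from proteins, was at 0.66 in the db/+ library and -0.79 with db/db and salt, on 184 and 7 UMIs in the members. Neither difference between the libraries was tested, since each group is 1 library.

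Barcodes outside the filters also met the endothelial and cycle conditions: 2 in the db/+ library, both with more than 10% mitochondrial UMIs, and 4 among those of db/db and salt, 3 with more than 10% mitochondrial UMIs and 1 with under 500 genes.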

How the results depend on the processing

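No paired analysis was possible because each group is 1 library, and for the same reason no replicate could be left out. The cycling share kept its direction under every alternative run, with log2 ratios between -1.58 and -1.10. Among single genes and lists, only a chosen set was followed over the alternatives. The lists were those of spindle, replication fork, interferon, antigen presentation, arterial and capillary genes. The venous, mural and other lists and most named genes were not followed. No followed value that was 2-fold apart changed sign. Smaller values that did were, between the libraries within cycling barcodes, those of Cyp26b1 (-0.23 to 1.13) and Apln (-0.39 to 0.25), within other barcodes those of Hist1h2ae (-0.10 to 0.31) and Stmn1 (-0.02 to 0.32), and for cycling over other db/+ barcodes those of Cd74 (-0.55 to 0.14) and Iigp1 (-0.14 to 0.10). Of the followed values of counts, shares and lists under the alternatives, 295 stayed within the counting error or 1.5 times the main count and 54 moved. For the followed single genes, 841 values stayed and 111 moved. TMM and size-factor scaling moved none of the gene counts and list medians; they do not enter the share or the phase percentage. Limits are the 39 members of the db/db and salt library, whose 772394 UMIs set the limit of 3 UMIs at 3.88 CPM, and the single library per group.

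Counts are given in the order higher and lower, cycling over other in the db/+ library, then in the db/db and salt library, then between libraries within cycling and within other barcodes. At 1.5-fold they were 549 and 348, 713 and 879, 114 and 291, and 33 and 97. With a minimum of 100 CPM they were 73 and 27, 100 and 73, 6 and 36, and 3 and 21. With a pseudocount of 50 they were 148 and 23, 197 and 70, 4 and 49, and 3 and 23. With a pseudocount of 1, 136 and 404 genes were lower in cycling barcodes, 20 were higher and 184 lower between libraries within cycling barcodes, and 9 were higher within other barcodes. With no filter but 1 UMI, 365 were lower in cycling barcodes of the db/db and salt library, 21 were higher between libraries within cycling and 8 within other barcodes. With a mitochondrial limit of 5%, 9 were higher between libraries within other barcodes. Chosen after seeing the data were weighting barcodes equally (25 higher between libraries within cycling barcodes) and leaving out each gene's top barcode (400 lower in cycling barcodes of the db/db and salt library).

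List medians moved mostly with the pseudocount and the filter. With a pseudocount of 50, the interferon median between libraries was -1.42 within cycling and -0.83 within other barcodes, the arterial medians were -0.97 and -1.18, the replication fork medians 0.73 and 0.78, and the spindle medians 1.53 and 1.75 (db/+ first). With a pseudocount of 1, the spindle medians were 5.73 and 6.31 and the db/+ arterial median -1.88. With a minimum of 100 CPM, the interferon median within other barcodes was -1.40, the arterial medians -1.20 and -1.26 and the spindle medians 4.16 and 4.46, and no replication fork gene was left. With equal weights the interferon median within other barcodes was -1.11 and the capillary medians -1.03 and -1.25. The cause of these shifts was not tested.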
